A study of Mus musculus with 2 samples.

Results

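On both parental alleles of F121-6 mouse embryonic stem (ES) cells, 720 of the 43941 windows of 50 kb had very short promoter contacts. A window was taken when its deposited interaction distance was above 0 and at most 30 kb on the 129 and on the Cas allele, with 100 or more interactions on each allele and fewer than 10000 in all. Of the 39284 windows within these count limits, 1.83% were members. A further 90 windows were as short on both alleles but had 10000 or more interactions, and 4 were as short with an allele under 100. The distances and the count limits chose the windows, so both are given below as a description with no test.

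The cells are female hybrids of the cross 129 / cas and carry 1 chromosome set of each strain. They were grown with LIF on mouse embryonic fibroblasts made unable to divide by mitomycin-C, and RNA was not measured in this assay, so no marker level could be read. Both samples, replicates 1 and 2, form a single group without any further treatment, and the table holds 1 pooled value per allele over chromosomes 1 to 19. No spread between replicates can therefore be given. Intervals of a 129 share cover counting error only, and those of a share of windows or a median over windows treat windows as independent.

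Chromatin is a flexible polymer, so 2 loci on the same chromosome meet more often the closer they lie, and most ligation products join near neighbours. Promoter Capture Hi-C ligates crosslinked HindIII fragments and then pulls down those that hold a promoter, which records how far the partners of a promoter lie. In ES cells, promoters also contact distal enhancers and, where Polycomb proteins silence them, other silenced promoters. A distance under 50 kb is shorter than the window itself, so a partner at that distance lies in the same window or in the next one. The sources used here do not say whether the deposited distance is a mean or a median.

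Promoters of 4 genes that start in member windows are shown because these windows carry the extremes described below: the shortest distance (Ppp4r3a), the largest allelic differences in distance (Pax7 and Ube3a) and the largest ratio of counts towards 129 (Ucma). Each line gives the 250 bases before the annotated start, 5′ to 3′, from RefSeq on GRCm38.p6, with CG dinucleotides in capitals.
Ppp4r3a: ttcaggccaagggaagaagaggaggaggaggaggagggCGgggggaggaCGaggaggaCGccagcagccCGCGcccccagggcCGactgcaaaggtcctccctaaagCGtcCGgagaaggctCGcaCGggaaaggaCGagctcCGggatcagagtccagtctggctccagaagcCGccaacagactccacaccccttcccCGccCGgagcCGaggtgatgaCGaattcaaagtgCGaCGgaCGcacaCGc
Pax7: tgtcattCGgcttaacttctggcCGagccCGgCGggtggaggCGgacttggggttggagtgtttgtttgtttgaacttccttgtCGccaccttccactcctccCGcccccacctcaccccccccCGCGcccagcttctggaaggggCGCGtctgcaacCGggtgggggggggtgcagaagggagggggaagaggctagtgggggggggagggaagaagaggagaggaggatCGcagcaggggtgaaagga
Ube3a: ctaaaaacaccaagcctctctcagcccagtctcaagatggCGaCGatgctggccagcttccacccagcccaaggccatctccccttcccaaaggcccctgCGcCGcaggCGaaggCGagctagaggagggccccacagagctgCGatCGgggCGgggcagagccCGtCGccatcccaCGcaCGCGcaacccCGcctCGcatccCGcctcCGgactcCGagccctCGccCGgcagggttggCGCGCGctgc
Ucma: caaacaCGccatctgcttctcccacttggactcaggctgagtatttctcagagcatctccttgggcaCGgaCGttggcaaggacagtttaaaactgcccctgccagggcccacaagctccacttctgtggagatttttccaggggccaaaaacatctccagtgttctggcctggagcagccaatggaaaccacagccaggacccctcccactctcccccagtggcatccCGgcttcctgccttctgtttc
They lie at chr12:101083703-101083952 (minus strand), chr4:139832969-139833218 (minus), chr7:59228500-59228749 (plus) and chr2:4975872-4976121 (plus). The 250 bases hold 21 CG dinucleotides at Ppp4r3a, 13 at Pax7, 24 at Ube3a and 4 at Ucma. The HindIII site AAGCTT was in none of these 4 stretches.

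The median member had a distance of 21 kb on 129 (quartiles 15 and 26 kb) and 19 kb on Cas (14 and 24 kb). The other 38564 windows within the count limits had medians of 315 and 318 kb. The median member had 2870 interactions on 129 (116 to 6016) and 2158 on Cas (109 to 4905), against 620 and 446 in the other windows. Members thus had more contacts than the other windows, although the rule asked only for 100 or more interactions per allele. Among members, shorter distances did not go with more contacts. The rank correlation of summed count and mean distance was 0.114 (n = 720). The distances on both alleles differed by 5 kb or less in 510 of the 720 windows, with a median difference of 3 kb. Across members the rank correlation of the 129 and Cas distance was 0.629 (n = 720), a description over windows that share the same libraries and the same limit of 30 kb.

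**Figure D1:**
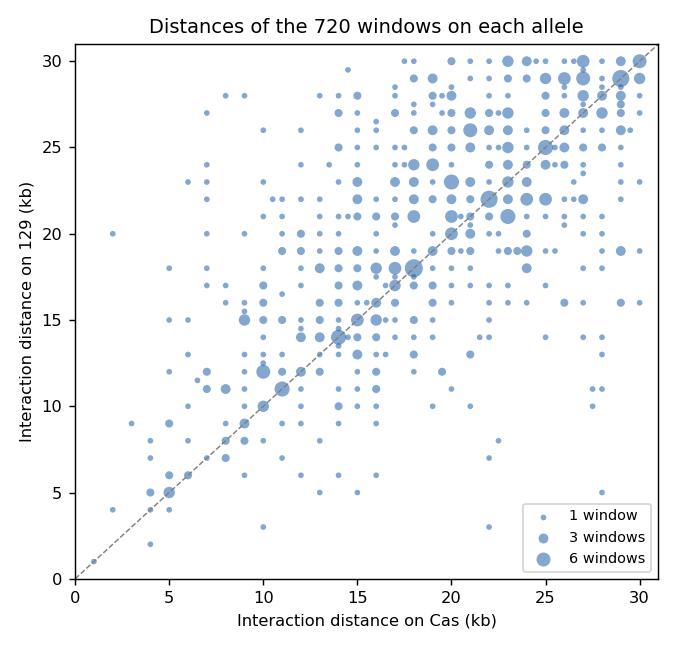
Interaction distance on 129 (vertical, kb) against that on Cas (horizontal, kb) for the 720 windows, where a larger point holds more windows and the dashed line marks equal distances. More windows lie above the line than below it, with 377 longer on 129 and 229 longer on Cas.

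The distance was longer on 129 in 377 members, longer on Cas in 229 and equal in 114, while the other windows within the count limits divided into 18746, 19187 and 631. The excess towards 129 was not limited to windows just inside the rule. With windows grouped by the mean of both distances, free of the limit on each allele, 56.5% were longer on 129 and 34.6% on Cas at 20 to 30 kb (538 windows). At 30 to 40 kb these shares were 55.4% and 38.5% (801 windows), and at 60 to 100 kb they were 47.5% and 49.0% (4013 windows). Of the windows within the count limits, 987 were at most 30 kb on 129 and 1141 on Cas. The 720 members are 72.9% of the first and 63.1% of the second.

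The windows nearest the limit on either side were picked by the larger of both distances, so this distance is alike by choice. The members just inside held Eml6 and Fem1al (chromosome 11, 29800001 to 29850000), with 30 kb on 129 and 29 kb on Cas, and Cand2, Rpl32, Efcab12 and Mbd4 (chromosome 6, 115800001 to 115850000), with 30 and 27 kb. Atl1 and Sav1 (chromosome 12, 69950001 to 70000000) lay at 27 and 30 kb. The fourth, a window of Snrnp200, Ciao1 and Tmem127 (chromosome 2, 127200001 to 127250000), lay at 30 and 23 kb. Sav1 encodes a scaffold of the Hippo kinases and Snrnp200 a helicase of the spliceosome. Just outside lay windows of Manbal (26 and 30.5 kb), of Zfat (31 and 17 kb) and of Myh14 (27 and 31 kb), and one without a coding gene (30.5 and 30 kb). Of all members, 41 had a distance of exactly 30 kb on an allele, and 41 had 10 kb or less on both.

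Most members were single windows, but members adjoined a member more often than other windows did. Of the 720 members, 648 had no adjoining member and 72 formed 36 adjoining pairs, and no 3 members lay in a row. Directly before a member, 36 of 696 windows were members, against 626 of 37599 before the other windows within the count limits. In the window before a member the medians were 1404.5 interactions on 129 and 1034 on Cas, with distances of 94 and 93 kb. In the window after it they were 1213 and 902.5, with 97 and 101 kb. Windows directly before the other windows within the count limits had median distances of 315 and 318 kb. At 100 kb the median counts were 812.5 and 592.5 before the member and 733 and 515 after it, against 614 and 442 and 621 and 447 around the other windows within the count limits. Distances differed over a longer range, with medians of 147.5 and 149 kb at 100 kb before the member and 267 and 274 kb at 500 kb before, where the other windows had 326.5 and 328 kb. Of the 677 members with both adjoining windows in the table, 405 (59.8%) had more interactions than either of them, as did 32.5% of the other windows within the count limits. This order held only at higher counts: it was 92.9% against 79.6% from 7000 to 9999 interactions, 72.7% against 66.9% from 5000 to 6999 and 64.5% against 52.2% from 3000 to 4999. It was turned from 1000 to 2999, at 17.5% against 25.4%, and below 1000, at 0% against 22.8%. A mean distance below that of both adjoining windows, which the rule favours, was found in 636.

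**Figure D2:**
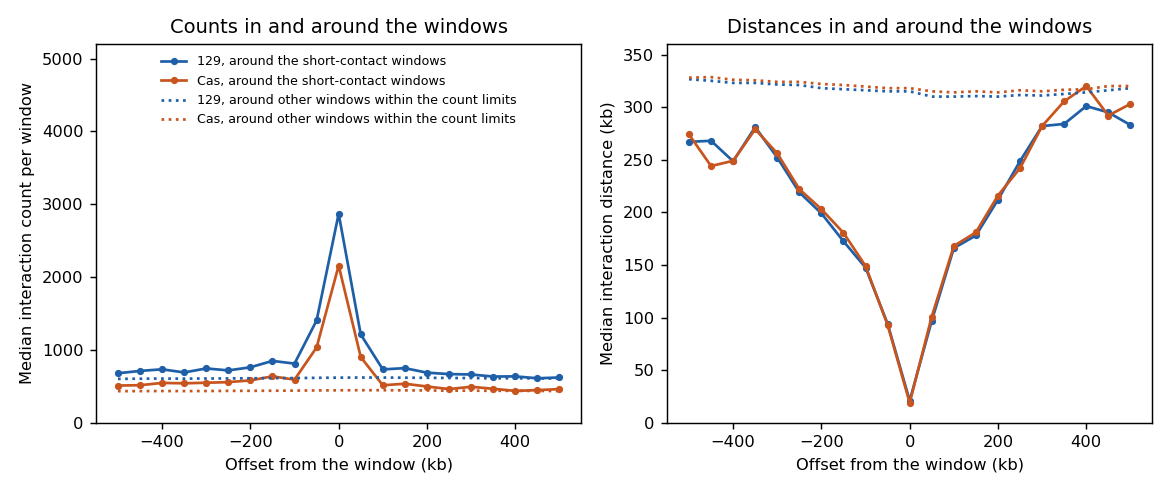
Median interaction count (left) and median interaction distance in kb (right) on 129 (blue) and Cas (orange) at offsets of up to 500 kb from the 720 windows (solid lines) and from the 38564 other windows within the count limits (dotted lines). Counts peak in the member itself at 2870 and 2158, and distances dip there to 21 and 19 kb.

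The share of windows with short contacts was larger at higher counts. Below 1000 interactions 0.437% of the windows within the limits were members (80 of 18313), and from 1000 to 2999 it was 0.910% (104 of 11425). From 3000 to 4999 it was 3.24% (162), from 5000 to 6999 it was 6.76% (199) and from 7000 to 9999 it was 10.9% (175 of 1604). Baits pull down promoter fragments, and the bait positions were not used here, so the part of the capture in this relation was not tested.

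A listed start of a protein-coding gene lay in 368 members, 51.1% (exact Clopper-Pearson 95% interval 47.4 to 54.8%), against 24.7% of the other windows within the count limits. Starts come from RefSeq promoters, which cover 79.6% of coding genes. Another 80 members held an end of a gene without a listed start, 152 held other stretches of coding genes, and 120 (16.7%) had no coding gene, against 39.7% of the other windows. Members with 2 or more coding genes made up 40.6%, against 16.6%. This difference in gene content went with the difference in count. Within a count range, members had no more starts than other windows at 3000 or more interactions: 53.7% against 61.6% from 3000 to 4999, 61.3% against 67.2% from 5000 to 6999 and 69.1% against 73.3% from 7000 to 9999. From 1000 to 2999 it was 33.7% against 25.6%, and below 1000 it was 3.75% against 4.15%. None of these differences was tested, since windows are not replicates.

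**Figure D3:**
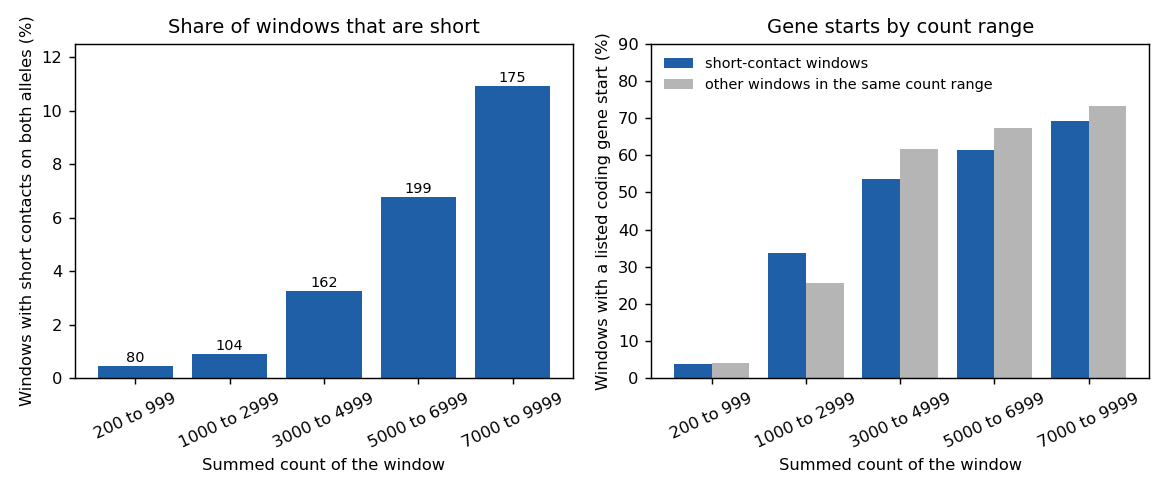
Left, percent of windows within the count limits that had short contacts on both alleles, by summed count, with the number of such windows above each bar. Right, percent of windows with a listed start of a coding gene among short-contact windows (blue) and other windows of the same count range (grey), which reached 69.1% and 73.3% in the highest range.

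Members with few interactions had much the same gene content as other windows of low count. Of the 80 with fewer than 1000 interactions, 48 (60%) had no coding gene, against 62.1% of the other windows in that range, and 3 held a listed start. Of these 80, 78 adjoined a window with more interactions than their own, and in 70 of them (87.5%) the larger neighbour had 3000 or more. Among the other windows below 1000 interactions 17.4% had such a neighbour. The median larger neighbour had 5038 interactions beside these members and 796 beside the other windows. A window on chromosome 6 (68200001 to 68250000) had the lowest count, at 116 (129) and 109 (Cas), with 16 kb on both alleles, and the next window had 3031 in all. On chromosome 3 (7450001 to 7500000) a window with 150 and 114 interactions at 9 and 5 kb adjoined one with 6192. If both ends of an interaction were counted, 2 neighbouring windows would share it. The part of the neighbour in the short distance was not tested. From 1000 to 2999 interactions 77 of 103 members had such a neighbour (74.8%, against 52.2% of other windows). At 3000 or more the order was turned, with 59.0% against 62.6%.

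The 12 members of highest count had between 9767 and 9991 interactions. The highest held Slc46a1, a folate transporter gene, Sarm1, whose product breaks down NAD in injured axons, and Vtn, which encodes vitronectin, and all 3 genes start in it (chromosome 11, 78450001 to 78500000). The counts there were 5556 (129) and 4435 (Cas) at 21 and 20 kb, and the window before it had 1603 and 1084 at 88 and 92.5 kb. The start of Kif13a, a kinesin gene, lay in a window with 5186 and 4804 interactions at 21 and 27 kb (chromosome 13, 46900001 to 46950000). Smc5, which encodes a subunit of a complex for DNA repair, had 5841 and 4100 at 29 and 24 kb (chromosome 19, 23250001 to 23300000). These 3 windows stood over neighbours with fewer interactions and longer distances on both alleles.

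Sp3, a transcription factor of the Sp family, had 5492 interactions on 129 and 4348 on Cas at 24 and 22 kb (chromosome 2, 72950001 to 73000000). A window of Map2k3, a kinase gene of the p38 pathway, and Natd1 had 5753 and 4043 at 16 and 26 kb (chromosome 11, 60900001 to 60950000). At Psd4 and Pax8, the latter a transcription factor of thyroid and kidney, it was 5290 and 4486 at 26 and 20 kb, with no listed start in the window (chromosome 2, 24400001 to 24450000). The genes in these windows differ widely in function. The other 6 held Bnip5 and Pxt1, Alkbh1, Nrp, Slirp and Snw1, Pcsk6, Snrpa1 and Selenos, the defensin genes Defb37 and Defb40 with Xkr5, Zfp787, Zfp444 and Galp, and Osbp2 with Dusp18. Their distances lay between 18 and 29 kb on both alleles.

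The shortest member of all was the window of Ppp4r3a, which encodes a regulatory subunit of a protein phosphatase (chromosome 12, 101050001 to 101100000). It had a distance of 1 kb on both alleles, with 1476 interactions on 129 and 1114 on Cas. Its neighbours were not short, at 56 and 68 kb before it and 70.5 and 428 kb after it. Both had more interactions, 2992 and 1792 before it and 1964 and 1554 after it. Next came windows without a coding gene on chromosomes 4 (22750001 to 22800000), 18 (79500001 to 79550000) and 7 (10750001 to 10800000). Their distances on 129 and Cas were 4 and 2 kb, 2 and 4 kb, and 4 and 4 kb, and their counts 470 and 302, 297 and 297, and 516 and 366. Each adjoined a window with more interactions, 2546 and 2030 on chromosome 4, 1834 and 1811 on chromosome 18 and 1029 and 834 on chromosome 7.

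A window that holds B3gnt7, a glycosyltransferase gene, and part of Ncl, the gene of nucleolin, had distances of 5 and 4 kb at counts of 1709 and 1115 (chromosome 1, 86300001 to 86350000). The window of Kcna4, a voltage-gated potassium channel gene, had 5 and 4 kb with 1303 and 888 (chromosome 2, 107300001 to 107350000). Windows without a coding gene on chromosomes 14 (120800001 to 120850000) and 12 (27150001 to 27200000) had 4 and 5 kb and 5 and 5 kb. The latter had more interactions on Cas than on 129, 3464 against 2745, and the window before it had fewer, 492 and 347. Larger neighbours lay beside the windows of B3gnt7 (3461 on 129 and 2867 on Cas) and Kcna4 (4565 and 3576) and that on chromosome 14 (4503 and 3095). Of the 41 members with 10 kb or less on both alleles, 15 held a listed start and 12 had no coding gene, and their median summed count was 2924. Chosen after its values were seen, the window of the neuropeptide Y receptor genes Npy1r and Npy5r combined short distances with a high count, at 6 and 5 kb with 5108 and 3322 interactions (chromosome 8, 66650001 to 66700000). Both genes start in this window.

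Some members were far shorter on one allele than on the other. At Pax7, a transcription factor of muscle stem cells and the neural tube, the distance was 1 kb (129) but 28 kb (Cas). This was a 28-fold difference (chromosome 4, 139800001 to 139850000). The counts of this window were 1982 (129) and 1232 (Cas). HindIII fragments set the shortest distance that can be measured, which limits ratios of such small values. At Top2b, which encodes a DNA topoisomerase, it was 5 and 28 kb with 1238 and 1176 interactions (chromosome 14, 16350001 to 16400000). At Scoc it was 3 and 10 kb with 2278 and 1261 (chromosome 8, 83450001 to 83500000). A window without a coding gene on chromosome 1 (86450001 to 86500000) had 3 and 22 kb. All 4 were longer on Cas, and 3 of these hold the listed start of the gene named.

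The opposite order was most marked at Ube3a, which encodes a ubiquitin ligase that is imprinted in neurons, with 20 kb (129) and 2 kb (Cas), a 10-fold difference (chromosome 7, 59200001 to 59250000). It had 1571 and 955 interactions, and the windows on either side lay at 1020.5 and 770.5 kb and at 686 and 710 kb. Arhgap15, a gene of a GTPase-activating protein, had 27 and 7 kb with 1665 and 1248 interactions (chromosome 2, 43750001 to 43800000). Msh4, a meiotic recombination gene, shared a window at 23 and 6 kb with Rabggtb and Acadm (chromosome 3, 153900001 to 153950000), with 3243 and 2225 interactions. Such cases were few: 32 members were 2-fold or more longer on 129 and 18 on Cas. The log2 distance ratio had a standard deviation of 0.55 over members and 0.83 over the other windows within the count limits, but the limit of 30 kb on both alleles itself narrows it. With 1 distance per allele and window, none of these differences could be tested.

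**Figure D4:**
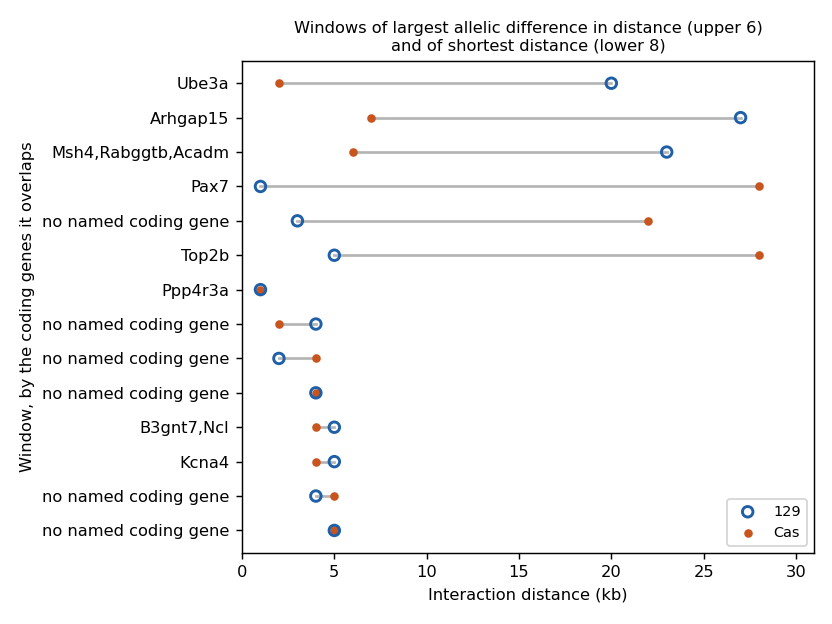
Interaction distance in kb on 129 (open blue circles) and Cas (orange points) in the 3 members per direction with the largest allelic difference in distance (upper part) and the 8 of shortest mean distance (lower part), named by the coding genes they overlap. Pax7 runs from 1 to 28 kb and Ube3a from 20 to 2 kb, while Ppp4r3a is at 1 kb on both alleles.

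The next comparison set the counts of both alleles in these windows against those of all windows, which held more interactions on 129. Summed over members, 2002584 interactions were on 129 and 1524696 on Cas, so 129 held 56.8% (95% interval 56.7 to 56.8%), against 57.6% over all windows. The log2 ratio of 129 to Cas was centred on the median window of the table, which lay at 0.45. On that scale the median member was at -0.06 (quartiles -0.18 and 0.08), with 442 members below 0 and 278 above. The rank-based 95% interval of this median was -0.08 to -0.04. The other windows within the count limits had a median of -0.01, with 51.3% below 0, as against 61.4% of members. From 5000 to 6999 interactions the medians were -0.09 in members and -0.05 in other windows, and from 7000 to 9999 they were -0.07 and -0.05. From 3000 to 4999 they were in the opposite order, at -0.02 and -0.04. Below 1000 they were -0.06 and 0.03, and from 1000 to 2999 they were -0.04 and -0.01. The shift of the members towards Cas was thus small, and it was not the same in every count range.

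Single members mostly lay near the median window of the table, which itself had more interactions on 129. Their centred log2 ratios spread with an SD of 0.26 over windows, against 0.37 in other windows within the count limits, and 3 members (0.417%) differed by 2-fold or more, against 1.58%. Members had the higher counts. At matched counts the SD was smaller in members too, but by amounts that varied. It was 0.32 against 0.38 below 1000 interactions, 0.28 against 0.37 from 1000 to 2999 and 0.23 against 0.39 from 3000 to 4999. From 5000 to 6999 it was 0.29 against 0.33 and from 7000 to 9999 it was 0.22 against 0.27. The beta-binomial test of the 129 count against the autosomal share, which allows for the spread between windows, with Benjamini-Hochberg adjustment at 0.05, called 0 of the 720 members. Over all 43762 windows tested it called 413, or 0.944%, with 0.727% higher on 129 and 0.217% higher on Cas. At an unadjusted p under 0.05 the same test gave 13 members, 6 higher on 129 and 7 on Cas, or 1.81%, against 5.51% of all windows. This test used 1 spread for all windows, an SD of 6.35 points of 129 share. Fitted within deciles of count, this SD was 4.64 points in the highest decile (324 members) and 10.9 in the lowest (3 members). The single spread was thus wide for many members, and the shares of members and of all windows are not matched on count. At this spread not even the member with a ratio of 1.20 was called, so 0 calls do not show balanced alleles. With spreads within deciles the test called 2 members. The exact binomial test, which allows for counting error alone, called 441 members, 162 higher on 129 and 279 on Cas. Its background was 51.4% of all windows, 27.1% higher on 129 and 24.3% on Cas.

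**Figure D5:**
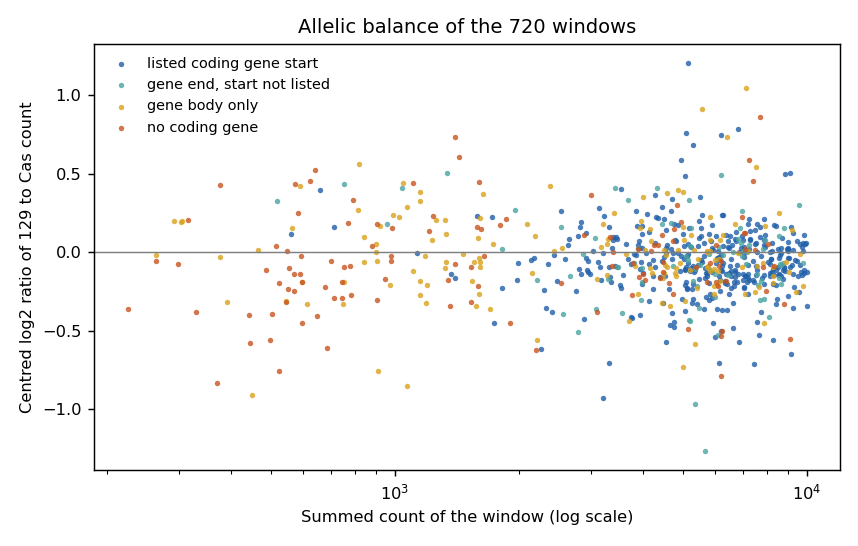
Centred log2 ratio of 129 to Cas count (vertical) against the summed count (horizontal, log scale) for the 720 windows, coloured by gene content. Most points lie near 0, with quartiles of -0.18 and 0.08, and the extremes are 1.20 and -1.27.

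The largest ratio towards Cas was in a window of Exosc9, a subunit of the RNA exosome, Ccna2, the gene of cyclin A2, and Bbs7, a gene of ciliary transport (chromosome 3, 36550001 to 36600000). The 129 allele had 2058 interactions there and the Cas allele 3617, so 129 held 36.3% (95% interval 35.0 to 37.5%), at 17 and 14 kb. Its centred log2 ratio was -1.27 and its adjusted p was 0.0826 by the beta-binomial test. The beta-binomial test with the spread estimated within deciles of count, over 43762 windows, gave it an adjusted p of 0.00170 and called it. Its other beta-binomial settings ranged from 0.0584, with the share of its own chromosome, to 0.876, with an equal share of both alleles. The windows before and after it were shifted the same way, at -1.55 and -0.50.

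Towards 129 the largest ratio was in a window of Ucma, a cartilage matrix gene, and Mcm10, which acts in the start of DNA replication (chromosome 2, 4950001 to 5000000). It had 3918 and 1243 interactions at 23 and 18 kb, a 129 share of 75.9% (74.7 to 77.1%), a ratio of 1.20 and an adjusted p of 0.149 by the beta-binomial test. Ptprk, a receptor phosphatase gene, had 5273 and 1864 at 15 and 11 kb (chromosome 10, 28200001 to 28250000), with a ratio of 1.05 and an adjusted p of 0.336 by that test, or 0.0347 with the spread within deciles. With the share of chromosome 10, which as a whole lay towards 129 (61.1%), the adjusted p of the beta-binomial test was 0.720, and with an equal share of both alleles it was 0.876. This window held gene body only. A second, less shifted member holds the listed start of Ptprk, with 3879 and 2402 interactions at 26 and 20 kb (28050001 to 28100000). Cdc42, which encodes a GTPase of the cytoskeleton, had 4013 and 1557 at 11 and 12 kb (chromosome 4, 137300001 to 137350000).

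The remaining 3 of the 6 towards 129 were a window without a coding gene on chromosome 16 (8950001 to 9000000) and those of Casp14 and Ccdc105 and of Ntpcr, with ratios of 0.86, 0.78 and 0.76. Towards Cas there followed Oxr1 with Abra (chromosome 15, 41850001 to 41900000), with 2210 and 3156 interactions at 19 and 20.5 kb. Further windows were those of Sgcz, a sarcoglycan gene, and Rock1, a kinase gene of the cytoskeleton, and one without a coding gene on chromosome 14 (18450001 to 18500000), with ratios of -0.91, -0.85 and -0.83. Neighbours were mostly shifted the same way as these windows: 10 of 12 neighbours were above 0 on the 129 side and 10 of 10 below 0 on the Cas side. The windows of Ptprk and Casp14 lie on chromosome 10, where the median of all windows was 0.24. No such share was taken for other windows, and interactions counted at both ends would be shared between neighbours. The distances of the 12 windows differed between alleles by at most 9 kb (24 and 15 kb at Casp14), beside a median difference of 3 kb over members.

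Gene families and classes were counted from 20 lists, beside a background of 5.71% of coding genes that overlapped a member (1060 of 18577). The pluripotency list had 2 of 36 genes in members, 5.56%. Esrrb, an orphan nuclear receptor of naive ES cells, had counts of 4883 (129) and 3864 (Cas) at 14 and 18 kb, between windows at 227 to 271 kb (chromosome 12, 86350001 to 86400000). Mycn, a gene of the Myc family, had 2911 and 1775 at 28 and 29 kb (chromosome 12, 12900001 to 12950000). Both genes start in these windows, which stood alone among windows with longer contacts. Members made up 1.64% of all windows, so a list that lies in few windows could well have none. None of 25 fibroblast genes (in 47 windows), 39 Hox genes (13) and 57 clustered protocadherin genes (16) overlapped a member. Of 31 neural transcription factor genes Pax7 did, and of 30 mesoderm and endoderm genes Eomes, a T-box factor, did, with 4101 and 2935 interactions at 19 and 17 kb (chromosome 9, 118450001 to 118500000).

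Replication-dependent histone genes were often in members, but in few windows. Of 38 such genes 12 (31.6%) lay in 2 members on chromosome 13, where histone genes are packed side by side. One, with H1f5, H3c11 and H4c12 among 7 genes, had 3461 and 2408 interactions at 16 and 15.5 kb (21750001 to 21800000). The other, with H4c9 among 5, had 3408 and 2614 at 25 and 14 kb (22000001 to 22050000). Counted by window this is 2 of the 13 with histone genes. Ribosomal protein genes overlapped members in 6 of 70 cases, 8.57%: Rpl21, Rpl29, Rpl32, Rpl36, Rps7 and Rps28, at 12 to 30 kb. Numbered zinc finger genes did so in 26 of 332 cases, 7.83%, in 19 windows. Zfp418 was the shortest of these, with 5 kb on both alleles, followed by Zfp873 at 8 and 8 kb and Zfp563 at 8 and 10 kb.

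Of the receptor families of the nose, 15 of 833 olfactory receptor genes (1.80%) and 2 of 220 vomeronasal receptor genes (0.909%) overlapped members. Counted by window, 6 of 439 with olfactory receptor genes (1.37%) and 2 of 217 with vomeronasal receptor genes (0.922%) were members, beside 1.64% of all windows. A window of Olfr727, Olfr728 and Olfr729 had 11 kb on both alleles and nearly equal counts, 3793 on 129 and 3766 on Cas (chromosome 14, 50100001 to 50150000). Its centred log2 ratio was -0.44, towards Cas. Among very long genes, 5 of 34 overlapped a member, 14.7%, but these genes span 866 windows, of which 5 (0.577%) were members. They were Csmd1 (27 and 21 kb), Dlg2 (27 and 22.5 kb), Wwox (28 and 29 kb), Nrxn3 (21 and 15 kb) and Dpp10 (22 and 23 kb). In none of these did the member hold a listed start of the gene. Among housekeeping genes Tbp, the TATA-binding protein gene, and Ncl were found, 2 of 24 or 8.33%. The other lists gave 3 of 22 cadherin genes, 3 of 32 semaphorin and receptor genes, 14 of 317 solute carrier genes and 3 of 75 potassium channel genes. They also gave 4 of 95 cytochrome P450 genes, 3 of 75 interleukin and receptor genes and 3 of 109 keratin genes.

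The 36 adjoining pairs often shared a gene across their border. Of the 28 coding genes in 2 members, Astn2, Egfem1, Oxr1, Ptprk and Atf7 had members apart from each other and the others lay in such a pair. In the pair with the highest total, which holds Slc3a2, Nxf1, Stx5a and Polr2g on chromosome 19 (8700001 to 8800000), the windows had 27.5 and 29 kb and then 23 and 20 kb on 129 and Cas. The pair at Brca1, a gene of DNA repair, and Nbr1 (chromosome 11, 101550001 to 101650000) had 18 and 18 kb, then 11 and 16 kb. The pair at Ncl had 5 and 4 kb, then 14 and 14 kb. Pairs could differ in count, as at Smad2, a mediator of Nodal signals, with 3161 and 2813 interactions in one window and 757 and 578 in the next (chromosome 18, 76200001 to 76300000). At Mtor, the kinase gene of growth control, the raw counts were nearly even, with 1864 and 1847, then 2910 and 3095 (chromosome 4, 148450001 to 148550000). The median window lay at a log2 ratio of 0.45, so even counts lie towards Cas on the centred scale. These pairs, apart from the first ones by total count, were chosen after their values were seen.

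Members lay on all 19 chromosomes, from 16 on chromosome 19 to 56 on chromosome 1. As a share of the windows within the count limits they ran from 1.20% on chromosome 10 to 2.62% on chromosome 18. The 129 share of members was lowest on chromosome 14, at 54.2%, and highest on chromosome 10, at 62.6%, and all windows of these chromosomes had 55.3% and 61.1%. The members of chromosome 10 thus followed their chromosome, with a median centred log2 ratio of 0.24 against 0.24 for all its windows.

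The promoters of genes that start in members were somewhat richer in CG dinucleotides than others. Over 658 promoters of 300 bases the median was 18 CG dinucleotides, against 15 over 15501 promoters in other windows within the count limits. The observed count was 0.6 or more of that expected from base composition in 64.6% of member promoters and in 52.5% of the others. In the 90 short windows with 10000 or more interactions this share was 45.9% (196 promoters). GC content was nearly the same, with medians of 58.5% and 58%. A HindIII site, AAGCTT, was in 6.08% of member promoters, 6.37% of the others and 6.45% of all promoters in the table's windows. TATAAA, sought on both strands, was in 10.0% of member promoters, 11.2% of the others and 2138 of all 17794. These are counts of letters in a window, and promoters that share a window are not independent. Members had the higher interaction counts, and the promoters were not matched on the count of their window.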

How the data were processed

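Promoter Capture Hi-C of F121-6 cells was deposited as 1 table for both samples. Fixation used 2% formaldehyde, per the labels' protocols, and HindIII fragments were captured with baits for 22225 promoters. The submitters' processing notes name Bowtie2 and mm10. How reads were filtered, assigned to alleles and merged could not be read from the sources. Deposited columns give whole-number interaction counts, not normalised, and a distance per allele, another unit than a count and taken to be in bp, in multiples of 500. Both samples were treated as pooled in each column.

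Window starts were raised by 1. Ratios were log2((129 + 1)/(Cas + 1)) minus the median of all windows. Windows with 10 or more interactions were tested with a two-sided beta-binomial test against the autosomal 129 share (57.6%), with 1 overdispersion (0.0165) fitted over all windows and tested on simulated data. Genes and promoters came from RefSeq on GRCm38.p6, matched by position; 16457 of 20665 coding genes had a listed start. The members and lists were chosen with earlier results of these data known. Named windows were the 12 of highest count, the 8 shortest, the 6 per direction of largest count ratio, the 4 per direction of largest distance ratio, the longest runs (here pairs), the 4 on either side of the limit and members of the lists; 2 of these are not reported here. Model genes and clone names were left out of the text. Software was scipy 1.17.1, matplotlib 3.10.9, pandas 2.3.3 and numpy 2.4.6 under Python 3.11.15.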

Additional observations from a re-analysis of the deposited data

How the results depend on the processing

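No member was called by the beta-binomial test with the share of each window's own chromosome, with an equal share of both alleles, at an adjusted p under 0.01, or with a summed count of 200 or more for testing. The count moved to 441 with the exact binomial test and to 2 with the overdispersion taken within deciles of count, which called 0.697% of all windows (305 of 43762). These 2 were the windows of Exosc9, Ccna2 and Bbs7 and of Ptprk. All 12 members with the largest count ratios were called by the binomial test. A limit of 20 kb left 278 members and a limit of 40 kb gave 1356, while limits of 25 and 35 kb, other count floors and no upper count limit gave 483 to 1006. The 129 share of members was 56.86% at 20 kb, 56.84% at 40 kb, 56.88% with no upper count limit and 56.70% as the median of windows. Without chromosome 10, an alternative chosen after seeing the data, it was 56.56%. The share of members with a gene start was 55.1% with no upper count limit and 58.6% with starts of all annotated genes. The median ratio stayed below 0 under both pseudocounts, the centre on each chromosome and without chromosome 10, at -0.07 to -0.06. No paired analysis was possible because each column pools both samples, so no replicate could be left out either. Members with the fewest interactions have the widest counting intervals.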
